A study of Mus musculus with 14 samples.

Results

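The 9 genes described here encode proteins that reach across the synaptic cleft, namely the neurexins Nrxn2 and Nrxn3, the neuroligins Nlgn1, Nlgn2 and Nlgn3, the LAR-type receptor phosphatases Ptprf, Ptprd and Ptprs, and the adhesion molecule Cadm1. They were chosen by symbol among the 19215 genes listed in both gene tables of whole spinal cord (WSC) RNA-seq. Their cassette exons, which are kept in some transcripts and skipped in others, were found by NCBI gene ID in the exon tables. Of 13189 cassette exon events in all, 23 lay in these genes. They involved 22 distinct exons in 7 genes, since the 59-nt exon of Ptprs entered 2 events and Nlgn3 and Ptprd had none.

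The series measured where the splicing factor NOVA contacts RNA in motoneurons (MNs) and in WSC. NOVA CLIP, in which RNA fragments crosslinked to NOVA are precipitated and sequenced, was performed in 4 replicates of each of 3 groups of 3-month-old C57BL/6 mice. In the hemizygous lines Chat:GFP-Nova #6 and #17, which are called line 6 and line 17 here, a BAC transgene expressed GFP-tagged NOVA2 from the Chat promoter. Spinal cords of several mice were pooled for each of these libraries, and the tag was precipitated with anti-GFP antibodies. In wild-type mice the endogenous NOVA1 and NOVA2 of the whole cord were precipitated with anti-Nova serum. RNA-seq was performed on spinal cord of 1 male and 1 female 12-week-old B6/SJL mouse. Both of these mice carried Tg(SOD1)2Gur/J, a transgene of wild-type human SOD1. Cell type, the NOVA proteins precipitated and their promoter, antibody, tag, genotype and pooling differ together between the MN and WSC CLIP libraries and cannot be told apart.

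The 8 MN libraries held 65961 to 871804 unique CLIP reads and the 4 WSC libraries 2213104 to 6095995, so values from MNs are the less precise. The RNA-seq libraries held 72006019 (male) and 65625173 (female) reads on genes. Across all genes, 53.7% to 66.8% of CLIP reads on genes lay outside exons in the MN libraries against 34.0% to 39.3% in the WSC libraries. All 3 MN markers with enough reads were higher in MN CLIP, with log2 differences of 2.22 (Slc5a7) to 3.08 (Chat, the gene on the transgene's BAC), and Slc18a3 was not matched. All 6 tested markers of other spinal neurons were lower, by log2 differences of -4.35 to -2.13. Of the glial markers, 4 of 4 tested astrocyte genes and 1 of 3 oligodendrocyte genes were lower. In RNA-seq the 3 Schwann cell markers were near 0 (0.110 to 0.229 RPKM).

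Neurexins sit mainly on the presynaptic membrane and bind neuroligins and other partners on the postsynaptic side. Neuroligins gather scaffolds and receptors, and their members differ in the synapses they serve: NLGN1 is best known at excitatory and NLGN2 at inhibitory synapses, while NLGN3 is found at both. LAR phosphatases are presynaptic organizers with immunoglobulin and fibronectin repeats outside the cell and phosphatase domains inside, and CADM1 joins membranes through its immunoglobulin domains. In several of these families short alternative exons change which partner is bound. NOVA binds clusters of the tetramer YCAY, in which Y stands for either pyrimidine, so that TCAT and likewise TCAC belong to it together with CCAT and also with CCAC. NOVA is known to promote inclusion of an exon when it binds downstream and skipping when it binds upstream or within the exon.

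The phosphatases Ptprd and Ptprs were the most abundant of the 9 mRNAs in WSC per length, and Nlgn1 was the least. The values are RPKM, reads per kilobase of exon scaled to the reads on genes of the library, given as the mean of 2 libraries with its SD. Ptprd measured 49.1 in the male and 52.2 in the female library (50.7 ± 2.23 SD, n = 2). Ptprs followed with 35.4 ± 1.81. Ptprf, the third phosphatase, was at 19.1 ± 1.76.

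Of the neurexins, Nrxn3 stood at 28.3 and 26.7 RPKM in the male and female library and Nrxn2 at 19.8 and 16.2. The neuroligins were in the order Nlgn2 (26.7 ± 4.72), Nlgn3 (13.8 ± 2.63) and Nlgn1 (8.52 ± 0.398), and the values of these 3 did not overlap between libraries. Cadm1 was at 18.3 ± 0.676. Nrxn3 and Nlgn2 overlapped each other, as did Ptprf, Cadm1 and Nrxn2, so the order within these sets is not larger than the spread between the libraries.

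Between 65.2% (Nlgn1) and 93.1% (Ptprd) of all genes were lower than each of the 9, and for 7 of the 9 this share was at least 79.3% (Nrxn2). Nlgn2 and Nlgn3 were higher in the male library by 0.36 and 0.39 on the log2(RPKM + 0.1) scale, which understates changes of low genes. These were 2 of 9 genes above a difference of 0.3, against 10.2% of the 11940 genes with a mean of at least 1 RPKM. None of the 9 was lower by that much, against 7.02%. With 1 library of each sex this has no replicate check. In bulk tissue, fewer cells of a type and less RNA per cell cannot be told apart.

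**Figure D1:**
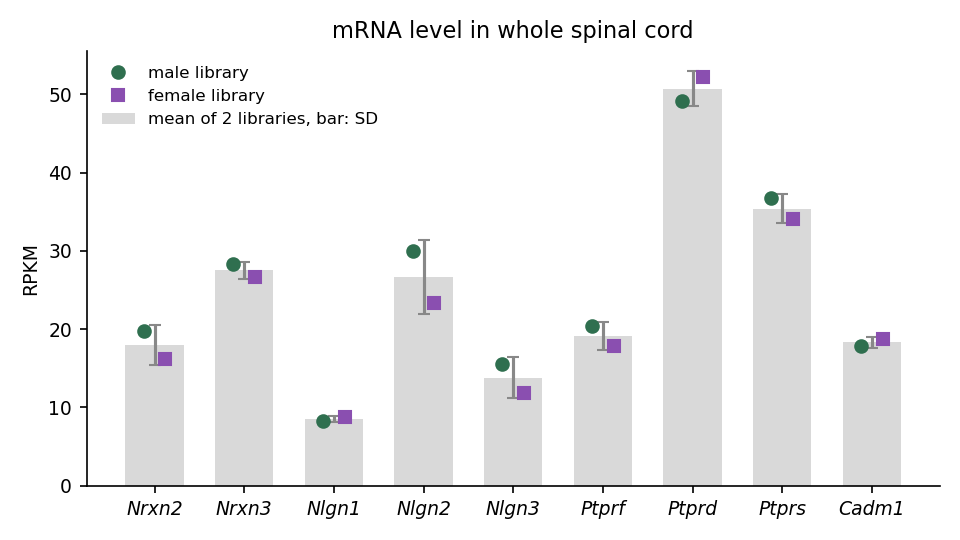
RPKM of the 9 genes in the 2 WSC RNA-seq libraries, with the male library as circles, the female library as squares, and bars for the mean with its SD (n = 2). Ptprd at 50.7 and Ptprs at 35.4 stand above the other genes, and Nlgn1 at 8.52 below them.

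Exon choice in these genes was often partial. An event counted as covered when at least 10 junction reads fell on it in each library, which held for 22 of the 23 (the 101-nt exon of Nrxn3 fell short in the female library). The inclusion rate is the mean of the 2 inclusion junction counts over that mean plus the skipping count. Of the covered events, 63.6% (14) had a mean rate between 10% and 90%, against 27.4% of all 9396 covered events of the series. Exons of at most 30 nt made up 31.8% (7), against 4.35%. Lengths that keep the reading frame made up 81.8% (18), against 46.3%. Some of these events share exons or junctions, so they are not independent.

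All 7 exons of at most 30 nt lay in neurexin or LAR phosphatase genes. Of these, 5 are shown with 40 nt of intron on either side because exons of this size are the smallest pieces of protein that these genes switch. Capitals mark the exon. Sequences are those of NCBIM37, the mm9 build, read 5′ to 3′ on the strand of the gene, and positions are those of the exon.
Nrxn2 30-nt exon, chr19:6448255-6448284, plus strand: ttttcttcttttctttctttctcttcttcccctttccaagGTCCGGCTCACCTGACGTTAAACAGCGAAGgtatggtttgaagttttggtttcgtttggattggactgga
Nrxn2 27-nt exon, chr19:6488784-6488810, plus strand: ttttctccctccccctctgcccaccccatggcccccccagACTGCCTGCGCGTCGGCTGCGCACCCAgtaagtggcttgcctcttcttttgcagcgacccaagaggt
Nrxn3 27-nt exon, chr12:90756350-90756376, plus strand: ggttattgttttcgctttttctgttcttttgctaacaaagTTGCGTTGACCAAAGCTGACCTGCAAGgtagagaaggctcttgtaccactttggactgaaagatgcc
Ptprf 18-nt exon, chr4:117924681-117924698, minus strand: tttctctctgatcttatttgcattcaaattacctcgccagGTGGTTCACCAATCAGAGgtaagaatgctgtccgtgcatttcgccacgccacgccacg
Ptprs 27-nt exon, chr17:56567214-56567240, minus strand: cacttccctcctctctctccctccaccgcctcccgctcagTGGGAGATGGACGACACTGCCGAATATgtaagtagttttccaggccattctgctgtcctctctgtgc
Both ends of 5 of the 7 exons are annotated in GENCODE, and those of the 18-nt Ptprf and 27-nt Ptprs exons are not.

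Nrxn2, whose alternative exons lie in the part outside the cell, had 5 events, all partly included. The 24-nt exon and its 45-nt form, which starts at the same base and ends later, belong to the neurexin insert known as splice site 2. Their rates were 59.6% and 62.0% (24 nt) and 45.9% and 49.0% (45 nt) in the male and female library. They share the first junction and the skipping reads, and the junction leaving the exon had 59 and 43 reads for the shorter form against 9 and 8 for the longer one. Each rate counts the shared junction and leaves out the other form, so the rate of the 45-nt form overstates its share. The 27-nt exon, splice site 3, was included at 80.7% (95% Wilson interval 66.3% to 89.9%, 75 junction reads) in the male and 59.3% (40.7% to 75.5%, 43 reads) in the female library. Intervals cover counting error only, as reads are not independent molecules.

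The 30-nt exon of Nrxn2 differed most between the libraries. Its inclusion was 63.0% (48.6% to 75.5%) in the male and 92.9% (77.4% to 98.0%) in the female library. The junction that skipped it had 17 and 2 reads. That junction joins the upstream exon directly to the 72-nt exon, and so is also the first inclusion junction of the 72-nt event (84.4% and 73.1%). The rates of the 2 events are therefore linked. Reads that entered the 72-nt exon from the 30-nt exon (21 and 30) are left out of the rate of the 72-nt exon. The rate of the 72-nt exon is thus understated, and its gap between the libraries carries the same limit. Transcripts without either exon gave 10 and 14 reads, which the rate of the 30-nt exon leaves out. That rate, its gap between the libraries and its test below therefore describe only transcripts that join to the 72-nt exon.

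Nrxn3 had a 27-nt exon at 69.4% and 65.7%, and a 90-nt exon that was nearly always kept, at 99.5% and 98.2%. The 90-nt exon is splice site 4, the neurexin insert known to set the choice between postsynaptic partners. Its first junction had 339 and 230 reads and its second 76 and 101. Skipping had 1 and 3 reads. The 101-nt exon, which shifts the reading frame, had 22 and 9 junction reads and was left out of the comparison.

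The neuroligin exons belong to splice site A. The 60-nt exon of Nlgn1 was included at 3.23% in the male and 17.6% in the female library, on 32 and 40 junction reads. Its intervals (0.572% to 16.2% and 8.35% to 33.5%) overlapped. The 51-nt exon of Nlgn2 was included at 96.5% and 96.6%, on 337 and 175 reads. The Nlgn1 exon was thus mostly skipped and the Nlgn2 exon mostly kept, and their intervals did not overlap in either library.

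Among the LAR phosphatases, Ptprf held the widest set, with 7 events. Its 18-nt exon was mostly skipped (23.6% and 18.8%). The 27-nt (50.4% and 40.7%) and 33-nt (51.9% and 43.1%) exons were near the middle. Exons of 306 nt (27.3% and 28.6%) and 579 nt (72.5% and 77.4%), which encode fibronectin repeats, were also partial. The 126-nt exon and its 130-nt form were at 100% in both libraries. The 130-nt form had no read on its own second junction in either library, so the rate rests on reads shared with the 126-nt form.

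Ptprs kept its 27-nt exon at 49.3% and 61.0%. Its 59-nt exon, which shifts the frame, was at 6.45% and 9.82% where it was counted against a downstream intron of 4121 nt and at 100% against one of 132 nt. In the first event 24 and 27 reads entered the exon, none left it over the long intron, and 174 and 124 skipped it. The second event used the same entering reads, with 2 and 1 reads leaving the exon and 0 skipping it. Its 100% thus rests mostly on reads shared with the first event. The 194-nt exon was at 100%. Cadm1 kept its 33-nt exon, which lengthens the stalk next to the membrane, at 76.6% and 69.7%, and its 54-nt exon at 6.38% and 12.1%. When both junction counts and the reads within the exon were summed in place of the junction mean, which raises every partial rate, the mean went from 27.9% to 78.6% for the 306-nt exon of Ptprf, where reads within the exon were many (93 and 37). It went from 8.13% to 19.8% for the first event of the 59-nt Ptprs exon and from 9.23% to 18.5% for the 54-nt Cadm1 exon. For the 18-nt Ptprf exon (21.2% to 34.9%) and the 60-nt Nlgn1 exon (10.4% to 18.1%) there were 0 reads within the exon, and the rise came from summing the junctions alone.

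The libraries were compared by Fisher's exact test (two-sided) with Benjamini-Hochberg adjustment over all covered events. The test set the sum of both inclusion junctions and the reads within the exon against the skipping count. An included transcript can thus count at both junctions and a skipped one only once. The p-values therefore rest on larger inclusion counts than the rates and intervals do, and the junction mean was not tested. This compares 2 libraries and not the sexes. At an FDR of at most 0.1, 1 of the 22 events was called, the 30-nt exon of Nrxn2 (exact p = 0.00233, FDR = 0.0684), against 4.26% of all 9396 events. With junction reads only (FDR = 0.0823, exact test, against 3.3% of all events) and with at least 20 junction reads (FDR = 0.0656, exact test, against 4.47%) the counts tested for this exon were the same, and only the adjustment differed. Unadjusted, 3 of the 22 were under 0.05, the other two being the 27-nt exon of Nrxn2 (exact p = 0.0406, FDR = 0.363) and the 60-nt exon of Nlgn1 (exact p = 0.0155, FDR = 0.218). The male rate was higher for 8, lower for 10 and equal for 4 events.

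**Figure D2:**
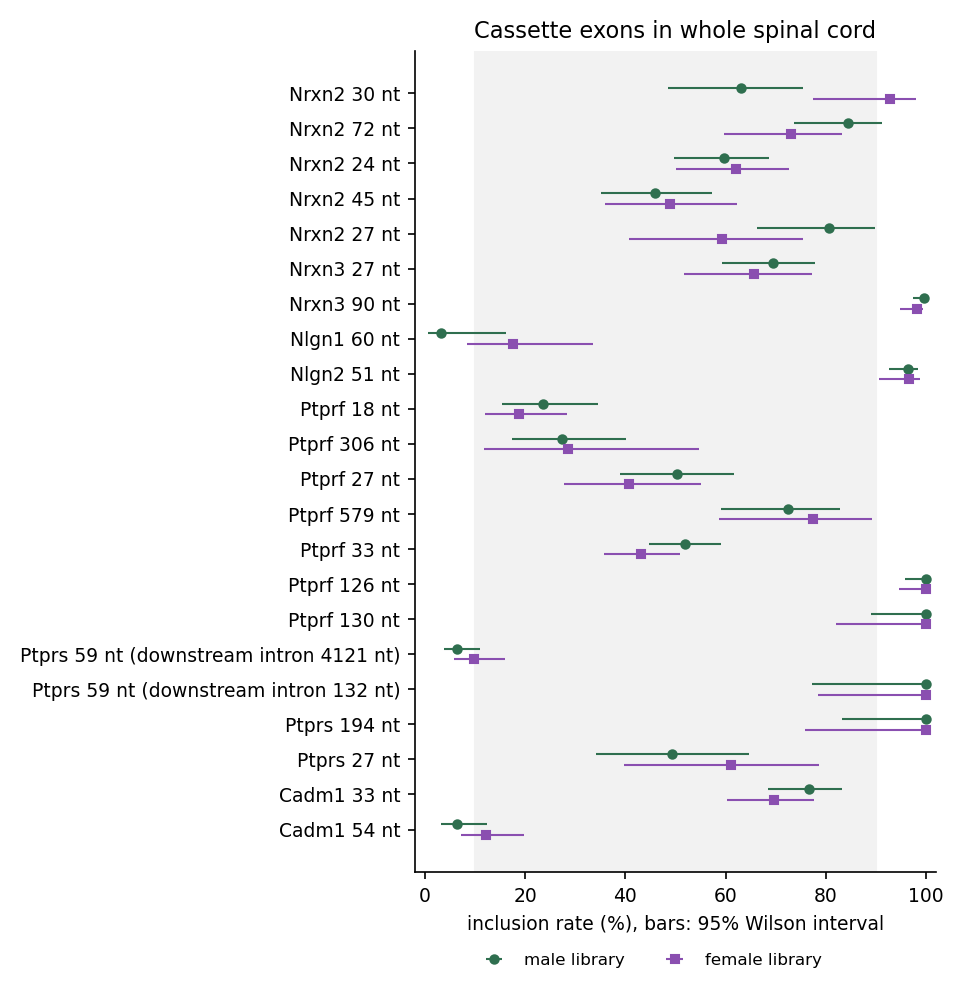
Inclusion rates (%) of the 22 covered events in the male (circles) and female (squares) library, with 95% Wilson intervals as bars and the span from 10% to 90% shaded. The mean of the libraries lies in the shaded span for 14 events, and the 30-nt exon of Nrxn2 shows the widest gap between libraries (63.0% and 92.9%). The rate of that exon leaves out transcripts that lack both it and the 72-nt exon.

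NOVA CLIP reads were counted over each gene from start to end on its strand and tested with edgeR (quasi-likelihood, 3 groups, mean of the lines against WSC). Of the 9 genes, 4 were higher in MNs at an FDR of at most 0.01, against 27.7% of the 4538 genes tested, and 1 was lower, against 29.1%. The median log2 difference was 0.06 over the 9 and -0.02 over all genes tested. No MN mRNA level enters these values, so whether more reads reflect more mRNA was not tested.

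Nlgn1 and Ptprd rose by a similar factor. Nlgn1 had 1770, 1860, 2080 and 2090 CPM (reads scaled to a common total of reads on genes, with TMM factors) in the WSC libraries and 2850 to 4140 (median 3580) in the 8 MN libraries. The log2 difference was 0.85 (SE 0.11, edgeR FDR = 2.04e-07). Ptprd had 2140, 2300, 2510 and 2440 CPM in WSC and 3260 to 4510 (median 4330) in MNs, a log2 difference of 0.83 (SE 0.10, edgeR FDR = 9.66e-08). Neither gene's groups overlapped.

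Cadm1 also rose, from 499, 537, 580 and 554 CPM in WSC to between 840 and 1120 (median 948) in MNs. Its log2 difference was 0.81 (SE 0.09, edgeR FDR = 3.18e-08), again without overlap. Every MN library was above every WSC library for these 3 genes, against 13.3% of all genes tested. Nrxn2 had 216, 218, 208 and 197 CPM in WSC and 215 to 525 in MNs, and its call (log2 difference 0.47, SE 0.16, edgeR FDR = 0.00981) was near the threshold with overlapping groups. That call was lost under DESeq2 (FDR = 0.0128), with RLE factors (0.0178), with no filter on low counts (0.114), with distinct read positions (0.0116) and with line 6 alone (0.187). It was also lost without any 1 of the 4 WSC libraries (0.0178 to 0.0261) and without any 1 of 6 of the 8 MN libraries (0.0105 to 0.0249), the exceptions being line 6 replicate 4 and line 17 replicate 4.

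Nlgn3, which serves excitatory and inhibitory synapses alike, fell. With no filter on low counts Nrxn3 (log2 -0.51, edgeR FDR = 5.36e-05) and Ptprf (log2 -0.88, edgeR FDR = 0.000492) were called lower too. Nlgn3 had 232, 196, 204 and 199 CPM in WSC against 65.6 to 165 (median 111) in MNs, a log2 difference of -1.03 (SE 0.14, edgeR FDR = 4.45e-07). Every MN library was below every WSC library, against 16.0% of all genes tested. Only 2.85% of the WSC reads of Nlgn3 were intronic, while the MN libraries held a larger share of reads outside exons over all genes. The part of that shift in the fall of Nlgn3 was not tested. The remaining genes were not called. Ptprf was at -0.67 (SE 0.27, edgeR FDR = 0.0284) on only 56 MN reads, Nrxn3 at -0.23 (edgeR FDR = 0.0681, and called lower with line 6 alone, log2 -0.45, FDR = 0.00637), Nlgn2 at -0.24 (edgeR FDR = 0.224) and Ptprs at 0.06 (edgeR FDR = 0.696).

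The lines did not differ on any gene at the same threshold. Of 4538 genes, 0 were called between line 17 and line 6 by edgeR, 216 (4.76%) had an unadjusted p under 0.05, and DESeq2 called 1. Nrxn3 had the smallest p of the 9 (log2 difference 0.44, SE 0.14, edgeR FDR = 0.922). The other 8 had FDRs of 0.971 to 1.

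**Figure D3:**
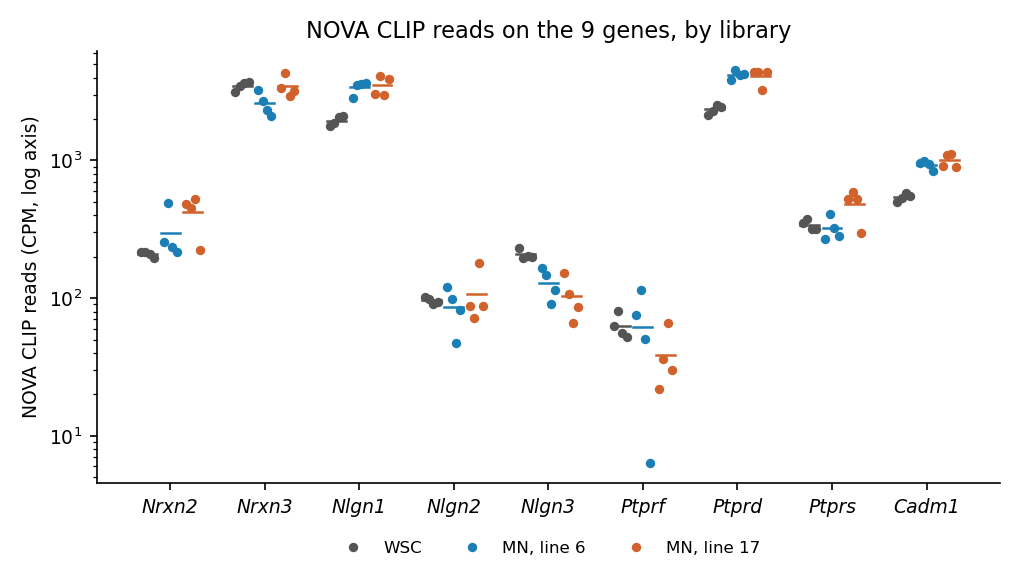
CPM of NOVA CLIP reads on the 9 genes on a log axis, with 1 point per library, 4 libraries each of WSC, line 6 and line 17, and a line at the mean of the group. Nlgn1, Ptprd and Cadm1 have all MN points above all WSC points and Nlgn3 all below, while Ptprf spreads from 6.31 to 115 in MNs.

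Where in the gene the reads lay differed between the groups. The share of reads outside exons was higher in every MN library than in every WSC library for 5 of the 9 genes, against 35.0% of the 3917 genes with a read in each library, and lower for none, against 0.281%. In Ptprs it was 22.4% to 28.3% in WSC and 67.7% to 88.9% in MNs. In Ptprf its median was 28.9% in WSC and 77.5% in MNs, and in Nrxn2 it was 60.9% and 82.8%. Nrxn3 and Nlgn1 were already mostly intronic in WSC (81.1% to 85.2% and 93.0% to 94.3%) and measured 91.7% to 96.7% and 98.4% to 99.5% in MNs. In Ptprd, Cadm1, Nlgn2 and Nlgn3 the groups overlapped. Nlgn3 had the lowest intronic share of the set, 2.85% of its pooled WSC reads, with 65.8% in the 3′ UTR and 30.9% in coding sequence. Other genes were rich in exonic reads too, with 48.9% of the WSC reads of Nlgn2 in the 3′ UTR and 66.2% of those of Ptprs in coding sequence.

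When only reads outside exons were counted and scaled to each library's own total of such reads, the set of called genes changed. The differences of Nlgn1 (0.10, SE 0.08, edgeR FDR = 0.352), Ptprd (0.04, SE 0.08, edgeR FDR = 0.695), Cadm1 (0.17, SE 0.08, edgeR FDR = 0.0954) and Nrxn2 (0.07, SE 0.16, edgeR FDR = 0.743) were no longer called. Nlgn3 and Ptprf had too few such reads to be tested. The MN libraries held a larger share of intronic reads over all genes. The part of that share in the calls of Nlgn1, Ptprd, Cadm1 and Nrxn2 was not tested.

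Nrxn3 and Ptprs were the 2 called genes of the 7 tested on reads outside exons. Nrxn3 had 7170, 7680, 7660 and 8070 CPM of reads outside exons in WSC and 2980 to 5530 (median 4390) in MNs. It fell by 0.89 on the log2 scale (SE 0.09, edgeR FDR = 3.36e-10). Ptprs had 221, 224, 222 and 200 in WSC and 302 to 686 (median 384) in MNs. It rose by 0.79 (SE 0.14, edgeR FDR = 3.8e-05). The groups did not overlap in either gene, against 7.69% of the 2719 genes tested with every MN library lower and 6.07% with every MN library higher. Calls at FDR 0.01 were made for 14.4% (lower) and 13.7% (higher) of these genes. Marker genes moved on this count too. Both tested MN markers, Chat and Slc5a7, were higher. Of markers of all neurons, 2 of 4 tested were lower (Rbfox3 and Syt1) and 0 higher, and 1 of 3 oligodendrocyte genes (Mobp) and the 1 tested astrocyte gene (Slc1a2) were lower. Their part in the values of Nrxn3 and Ptprs was not tested.

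**Figure D4:**
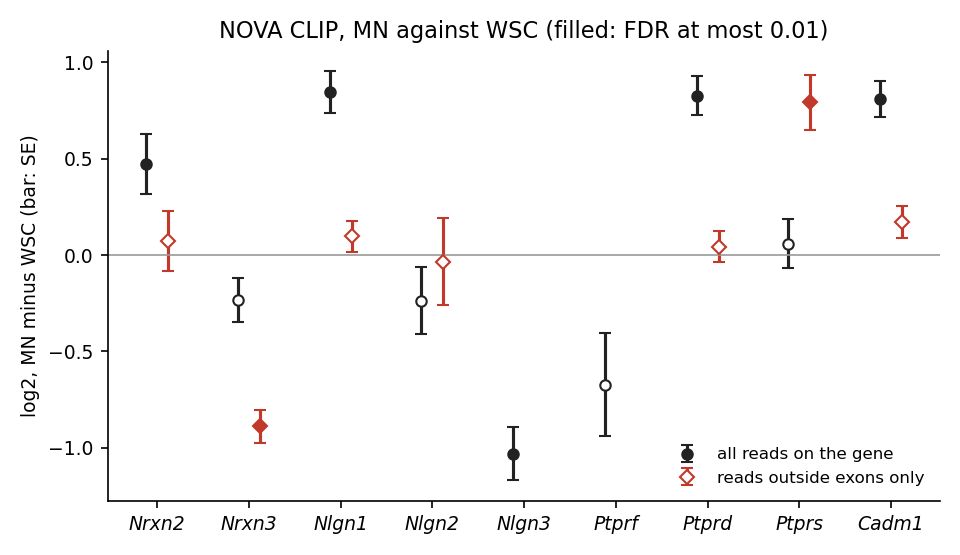
Log2 difference between MNs and WSC in NOVA CLIP reads for each gene, with its SE, for all reads (circles) and for reads outside exons (diamonds), filled where the edgeR FDR is at most 0.01. Nlgn1, Ptprd and Cadm1 drop from above 0.8 to below 0.2, Nrxn3 falls to -0.89 and Ptprs rises to 0.79, and Nlgn3 and Ptprf have no diamond.

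To see the sites themselves, the 3 densest stretches of 51 nt in the pooled WSC reads were taken in each gene, which gave 27 sites. Of these, 13 lay in 3′ UTRs, 8 in coding sequence, 5 in introns and 1 in a 5′ UTR. All 27 held YCAY within 81 nt, against 72.7% of the 64558 consecutive 81-nt pieces of the 9 genes, and 14 held at least 4, against 5.47%. The sites were chosen by their reads, so these shares are descriptions. Shown are the densest site of Nrxn3, Ptprs and Cadm1 and the densest intronic site of Nlgn2, with YCAY in capitals, since they range from coding to intronic contacts.
Nrxn3, coding sequence, chr12:91560409-91560489, plus strand: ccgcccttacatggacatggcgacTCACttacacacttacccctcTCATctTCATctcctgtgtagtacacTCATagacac
Ptprs, coding sequence, chr17:56561547-56561627, minus strand: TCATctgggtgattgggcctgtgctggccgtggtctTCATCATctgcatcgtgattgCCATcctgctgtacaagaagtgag
Nlgn2, intron, chr11:69645932-69646012, minus strand: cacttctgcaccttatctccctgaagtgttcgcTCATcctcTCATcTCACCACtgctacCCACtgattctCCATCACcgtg
Cadm1, intron, chr9:47503708-47503788, plus strand: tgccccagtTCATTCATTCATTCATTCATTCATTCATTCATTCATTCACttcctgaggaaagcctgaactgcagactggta
The Cadm1 site, a run of TCAT repeats with 10 motifs, took 6.87% of the gene's WSC reads and 6.56% of its MN reads (511 and 87 reads). The Ptprs site took 14.3% of WSC reads and 3.67% of MN reads (673 and 18), and the Nrxn3 site 2.72% and 1.75% (1298 and 74). The intronic Nlgn2 site took 7.86% and 16.8% (103 and 20). The choice of sites by WSC reads favors their WSC shares, so the shares of the groups do not compare binding at the sites. Coding sequence as a whole held 66.2% of the WSC reads and 25.1% of the MN reads of Ptprs. Whether the share of any site differs between the groups was not tested.

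Reads within 400 nt of the 22 exons were few, and 10 exons had the 20 reads over the 12 libraries that were required for a test. Exons near each other share reads. Of these 10, 2 were higher in MNs at an FDR of at most 0.1, against 13.8% of the 1883 exons tested, and 2 were lower, against 17.8%. The median log2 difference over all exons tested was -0.31.

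The 59-nt exon of Ptprs carried its reads upstream. The WSC libraries had 13, 21, 22 and 15 reads, of which 65 of 71 lay upstream at a median distance of 116 nt. The line 6 libraries had 4, 3, 6 and 0 reads and the line 17 libraries 2, 10, 1 and 8, of which 32 of 34 lay upstream at a median of 132 nt. The log2 difference was 2.20 (SE 0.39, edgeR FDR = 6.66e-07), and with library totals of reads outside exons it was 1.37 (edgeR FDR = 0.00195). Without any 1 library it was between 1.80 and 2.78. Of the intronic reads of Ptprs, pooled over libraries, those beside this exon were 5.82% in WSC and 9.58% in MNs. Shares of single libraries overlapped between the groups, with 4.63% to 11.5% in WSC and a median of 10.5% in MNs. Whether this share differs between the groups was not tested.

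The 18-nt exon of Ptprf carried its reads downstream. The WSC libraries had 3, 11, 12 and 3 reads, of which 25 of 29 lay downstream, and 5 of the 8 MN libraries had 9 reads, all downstream. The log2 difference was 1.5 (SE 0.63, edgeR FDR = 0.0733). This call was lost under DESeq2 (FDR = 0.113), in a window of 200 nt (0.339), with no filter on low counts (0.24), with totals of reads outside exons (log2 0.68, FDR = 0.395), and without line 6 replicate 1 (0.191) or 3 (0.399), line 17 replicate 1 (0.103) or 3 (0.15), or WSC replicate 1 (0.103). The intron downstream of this exon held 19 YCAY within 200 nt, a number reached by 0.032% of the 12502 distinct cassette exons of the series, whose median was 3. The 2 lower calls were the 126-nt exon of Ptprf and its 130-nt form, which share 1 set of reads, 27 in WSC and 0 in MNs. At the WSC share 2.98 MN reads would be counted, which is under the floor of 3 reads that a count of 0 allows. These calls (log2 -4.38, edgeR FDR = 0.0781) thus rest on a count of 0 that the WSC share could also give. They were lost under DESeq2 (log2 -0.285, FDR = 0.936), with no filter on low counts (edgeR FDR = 0.261) and without line 17 replicate 4 (0.312), among other settings. They were kept in a window of 1000 nt (log2 -5.37, edgeR FDR = 0.00963) and with totals of reads outside exons (log2 -4.48, edgeR FDR = 0.0113).

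The 200 nt next to the exon on the side with more reads are shown with YCAY in capitals for the exons of Ptprf and Ptprs just described and for splice site 4 of Nrxn3. The median distance of the downstream reads of the Ptprf exon was 201 nt in WSC and 157 nt in MNs, so many of its reads lay beyond the stretch shown.
Ptprf 18-nt exon, downstream, chr4:117924481-117924680, minus strand: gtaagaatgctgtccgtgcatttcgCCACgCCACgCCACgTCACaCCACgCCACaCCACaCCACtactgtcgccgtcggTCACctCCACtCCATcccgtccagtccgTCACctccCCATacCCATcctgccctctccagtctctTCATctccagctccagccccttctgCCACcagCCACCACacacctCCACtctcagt
Ptprs 59-nt exon, upstream, chr17:56568581-56568780, minus strand: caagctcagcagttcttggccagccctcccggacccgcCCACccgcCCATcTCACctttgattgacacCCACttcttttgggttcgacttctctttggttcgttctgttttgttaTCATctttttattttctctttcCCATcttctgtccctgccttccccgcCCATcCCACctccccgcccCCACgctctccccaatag
Nrxn3 90-nt exon, downstream, chr12:91437677-91437876, plus strand: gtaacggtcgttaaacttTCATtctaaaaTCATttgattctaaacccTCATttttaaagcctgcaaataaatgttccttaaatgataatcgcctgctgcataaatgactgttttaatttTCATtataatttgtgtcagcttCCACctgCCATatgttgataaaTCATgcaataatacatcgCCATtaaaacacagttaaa
The flank upstream of the Ptprs exon held 9 YCAY, a number reached by 1.4% of all exons, and the flank downstream of the Nrxn3 exon held 8, reached by 2.98%. At least 1 YCAY was present in 94.9% of all upstream and 94.0% of all downstream flanks. A second element, TGCATG, the motif of RBFOX proteins, was present downstream of 6 of the 22 exons (72-nt Nrxn2, 101-nt Nrxn3, 60-nt Nlgn1, 51-nt Nlgn2, and the 194-nt and 27-nt exons of Ptprs, whose flanks overlap) and upstream of the 33-nt Cadm1 exon. It was present in 9.65% and 7.73% of all flanks. Motifs were searched on the strand of the gene.

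Splice site 4 of Nrxn3 had 57 WSC reads, 43 of them downstream at a median of 96 nt, and 9 MN reads, 8 of them downstream. The 30-nt exon of Nrxn2 had 50 WSC reads, 44 of them downstream at a median of 339 nt, beyond the 200-nt flank, and 7 MN reads. Neither was called (log2 0.54, SE 0.60, edgeR FDR = 0.507 and log2 0.31, SE 0.67, edgeR FDR = 0.75),. The 12 exons under the required reads included those of Nlgn1 (5 WSC and 5 MN reads), Nlgn2 (5 and 0) and Cadm1.

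**Figure D5:**
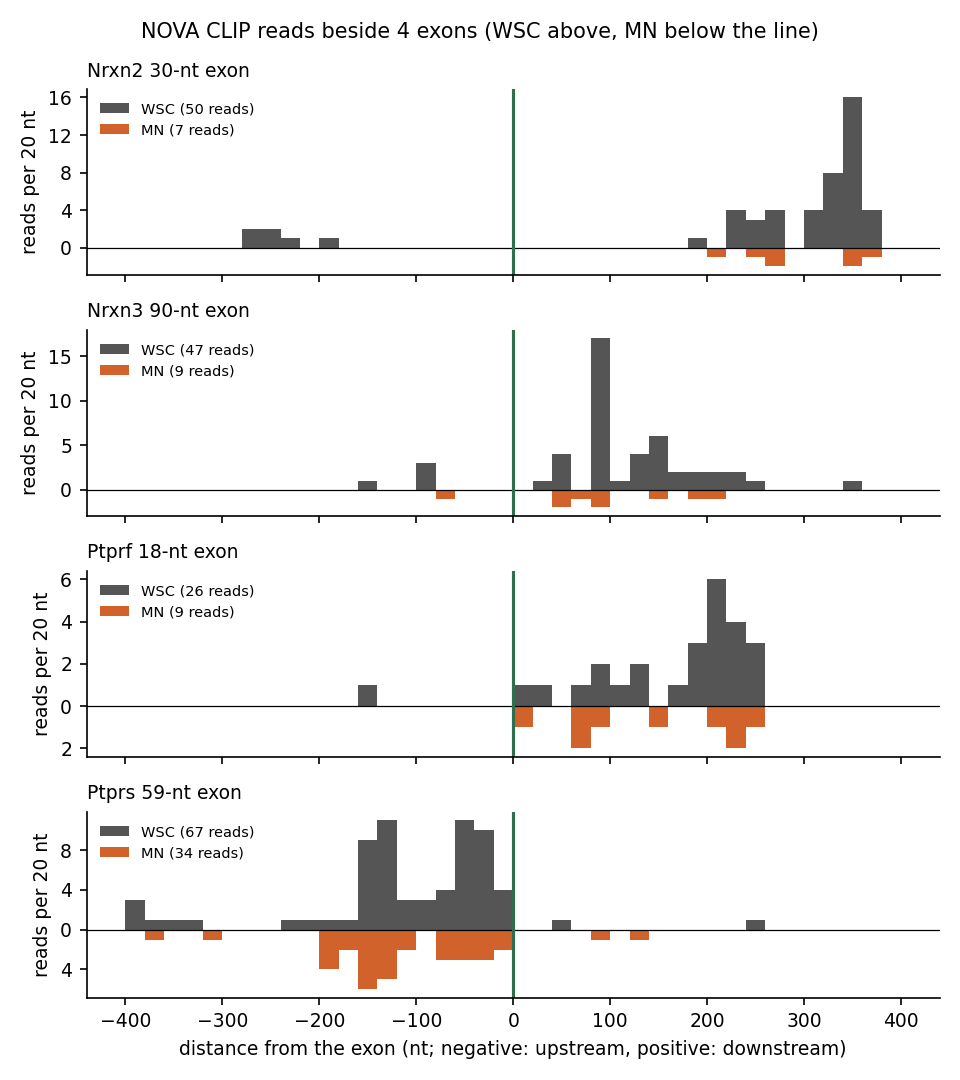
NOVA CLIP reads per 20 nt by distance (nt) from 4 exons, upstream to the left and downstream to the right of the vertical line, with WSC reads drawn up and MN reads drawn down. Reads lie downstream of the Nrxn2, Nrxn3 and Ptprf exons and upstream of the 59-nt Ptprs exon (67 WSC and 34 MN reads outside that exon).

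Of 37 partners outside the cell, 24 were tested in gene-wise CLIP, 9 were higher in MNs, 6 lower and 9 not called (median log2 0.15), where 27.7% of all genes tested were higher and 29.1% lower. The higher ones with the smallest p were Lrrtm3 (1.00, SE 0.09) and Lrrtm4 (1.05, SE 0.11), postsynaptic ligands of neurexins, and Nxph1 (0.95, SE 0.12), a secreted neurexin ligand. The lower ones with the smallest p were Lphn1 (-1.03, SE 0.12), a latrophilin receptor, Flrt2 (-1.45, SE 0.23), a latrophilin ligand, and Lrrtm2 (-0.96, SE 0.16).

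Of 24 partners inside the cell, 18 were tested, with 5 higher, 5 lower and 8 not called (median log2 0.06), which is near the shares of 27.7% and 29.1% over all genes. Ppfia2 (1.34, SE 0.10), a liprin that binds LAR phosphatases, Apba2 (1.00, SE 0.10), a MINT adaptor, and Dlg2 (0.63, SE 0.09), a scaffold, were higher. Epb4.1l1 (-1.19, SE 0.12), a link to the actin cytoskeleton, and Dlg4 (-1.40, SE 0.19), the scaffold PSD-95, were among the lower ones. On reads outside exons, 17 and 15 partners could be tested. Lrrtm4, Cadm3, Ppfia2 and Epb4.1l3 were then called higher, and Cadm2, Lphn3 and Flrt2 lower, where 13.7% of all genes tested were higher and 14.4% lower. Of the partners named for all reads, Lrrtm3, Nxph1, Apba2 and Dlg2 were not called or not tested on this count. The same held for Lphn1, Lrrtm2, Epb4.1l1 and Dlg4.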

How the data were processed

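Members and gene lists were chosen with earlier results of these data known. Per the study's methods and the sample notes, the authors mapped CLIP reads to mm9 with Novoalign and collapsed them to unique reads, deposited as 1 row per read with a score of mapping that was not used. RNA-seq reads of 74 nt were mapped with OLego and counted with Quantas, and the authors deposited counts per gene, exon body and junction, and RPKM per gene.

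CLIP reads were assigned by their midpoint to GENCODE vM1 protein-coding gene spans on the same strand, and positions in more than 1 span were left out. Counts were tested with edgeR 4.0.16 (TMM factors, filterByExpr) at an FDR of at most 0.01. Exon windows reach 400 nt to either side, were scaled by the gene totals, and needed 20 reads over the 12 libraries and an FDR of at most 0.1. That minimum was set after seeing that few windows passed filterByExpr. DESeq2 1.42.0 was the alternative tool. Exon positions were derived from the relative names in the tables by their splice sites in NCBIM37. Fits were tested on simulated counts. The named genes are all members, exons of at most 30 nt or with a mean inclusion of 10% to 90%, and per partner list the 3 called genes with the smallest p in each direction. Other exons, and list genes called on reads outside exons, were named after their values were seen. Some items that these rules select are not reported here. Replicates were compared and none were duplicates (chi-square per degree of freedom of at least 1.33). Line samples are pools of mice, while the study's methods give 1 mouse for each WSC CLIP sample. The p-values of the CLIP tests therefore measure a spread over pools and single mice together. Intervals are 95% Wilson intervals, and the pseudocount for RPKM was 0.1.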

Additional observations from a re-analysis of the deposited data

Results flagged for a closer look

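Of 27 groups of 4 libraries (the 9 genes in each CLIP group), 4 held a library that stood apart from the other 3 in CPM, where 1.35 would be found by chance at 1 in 20. Nrxn2 was at 492 CPM in line 6 replicate 2, above the rest of that line. Nlgn1 was at 2850 in line 6 replicate 1, below the rest, but above every WSC library. Ptprd was at 3260 in line 17 replicate 3, below the rest, and again above every WSC library. Nlgn2 was at 180 CPM in line 17 replicate 3, on 11 reads. These libraries are among those with the fewest reads, from 91058 to 101175 unique reads. Whether depth has a part in the gaps was not tested.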

How the results depend on the processing

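The count of genes called between MNs and WSC (2578) fell to 763 with reads outside exons only, where fewer genes were tested, and ranged from 1852 to 2900 without 1 library. With no filter on low counts 1049 genes were higher and 2654 lower, and the median moved to -0.24. Between the lines DESeq2 called 1 gene, and leaving out 1 library gave 0 to 3, the 3 without line 17 replicate 4. Near exons, 595 were called (259 higher, 336 lower). This became 994 with 1000 nt (537 and 457), 424 with 200 nt (139 and 285), 258 with DESeq2 (173 and 85) and 440 with no filter (285 and 155). Leaving out 1 library gave 203 to 577, with 303 without line 6 replicate 3 and 203 (120 and 83) without line 17 replicate 4, the deepest libraries of each line. Chosen after seeing the data, a minimum of 50 reads gave 399 (155 and 244) and totals of reads outside exons gave 792 (85 and 707). The cause was not tested.

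Some uncalled values changed sign. For Ptprs on genes the log2 difference was -0.16 with no filter, -0.11 with line 6 alone and -0.036 to 0.28 without 1 library (-0.036 without line 17 replicate 2). Without 1 library, the values near exons ranged from -2.31 to 0.61 (30-nt Nrxn2), from -1.76 to 1.33 (24-nt and 45-nt Nrxn2) and from -0.68 to 0.47 (101-nt Nrxn3, 0.24 without line 6 replicate 3). The lowest Nrxn2 values were without line 6 replicate 3. DESeq2 gave 0.073 for the 101-nt Nrxn3 and 0.21 for the 579-nt Ptprf exon, and totals of reads outside exons gave -0.52 for the 30-nt Nrxn2 and -0.29 for the 90-nt Nrxn3 exon.

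Over 12 same-numbered pairs the correlations of deviations ran from -0.0664 to 0.198, and 3 were over 0.1. These 3 were among the 4 pairs of line 6 with line 17 (0.165, 0.0555, 0.107 and 0.198), and line 6 replicate 3 correlated best with line 17 replicate 4 (0.171), so pairing between the lines is hinted at but not established, and the samples were treated as sharing only a number. With the replicate number as a block, 2082 genes and 459 exons were called between MNs and WSC and 0 genes between the lines. The 126-nt and 130-nt Ptprf exons were then no longer called (edgeR FDR = 0.104). The MN libraries, of 65961 to 871804 reads, limit the exon tests.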
